A study of Mus musculus with 16 samples.

Results

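Transcripts of 10 genes of the bone morphogenetic protein (BMP) and transforming growth factor beta (TGF-beta) pathways were followed through sorted vascular and blood-associated cells of the mouse embryo. The genes were the ligands Bmp2 and Bmp4, the receptors Acvrl1, Bmpr2 and Tgfbr2, the coreceptor Eng, the inhibitory Smads Smad6 and Smad7, and the target genes Id1 and Id3. They were chosen by name, with earlier results of these data known. Every probe that the array files assign to 1 of these symbols was taken, which gave 12 of 55681 probes. The genes tested numbered 24607. All 10 genes passed the filter on dim probes, and 11 of the 12 probes did.

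The samples were VE-cadherin-positive cells of E11.5 mice of mixed strain background (B6/CBA and others) collected by flow cytometry. CD45- and CD45+ gates were sorted from yolk sac and from embryo proper, in control mice and in mice labelled Tie-2-Etv2, on 2 single-colour Agilent arrays for each of the 8 groups. Ptprc encodes CD45, a protein on the surface of leukocytes, Cdh5 encodes VE-cadherin, which joins endothelial cells, and Tek encodes Tie-2, an angiopoietin receptor. Etv2 belongs to the ETS factors and starts the blood and endothelial lineages in early embryos. Whether Tie-2 stands for a promoter or a Cre driver, and the genotype of the controls beyond the word control, are not given in the sources used here. A group is written as E for embryo or Y for yolk sac with the sign of the CD45 gate, and C or Tg for control or Tie-2-Etv2, so that Y- Tg1 is array 1 of the yolk sac CD45- Tie-2-Etv2 cells. For the E- Tg arrays the title names Tie-2 without Etv2, while the genotype label is Tie-2-Etv2.

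BMP and TGF-beta ligands bind complexes of type I and type II receptors, which phosphorylate Smad proteins that enter the nucleus and bind target genes. In endothelial cells the type I receptor ALK1 (Acvrl1) with the type II receptor BMPR2 and the coreceptor endoglin (Eng) answers circulating BMP ligands, and its target genes include the Id genes and the inhibitory Smads, which damp the pathway in turn. Loss of ALK1 or endoglin causes vascular malformations in people and in mice, and BMP4 acts early in the formation of yolk sac blood and vessels.

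The bases just upstream of 4 of these genes are shown because Eng went up where Id3 went down in 1 of the sorted populations, and Smad6 and Bmp4 fell together in another. The RefSeq promoter table for GRCm38.p6 gave windows for 6 of the 10 genes that were used here (Eng, Bmpr2, Tgfbr2, Bmp4, Smad6 and Id3). Each window holds the 250 bases that end just before the annotated start, written 5′ to 3′ on the strand of the gene, and capitals mark GGAA or its reverse TTCC, the core letters of ETS factor sites. Eng lies on the plus strand (chr2:32646345-32646594), Id3 on the plus strand (chr4:136143572-136143821), Smad6 on the minus strand (chr9:64022060-64022309) and Bmp4 on the minus strand (chr14:46390670-46390919).
Eng: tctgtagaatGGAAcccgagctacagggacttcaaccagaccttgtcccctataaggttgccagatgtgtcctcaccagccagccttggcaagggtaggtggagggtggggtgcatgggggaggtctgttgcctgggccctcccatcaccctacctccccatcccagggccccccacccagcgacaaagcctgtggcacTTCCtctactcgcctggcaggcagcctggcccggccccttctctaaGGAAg
Id3: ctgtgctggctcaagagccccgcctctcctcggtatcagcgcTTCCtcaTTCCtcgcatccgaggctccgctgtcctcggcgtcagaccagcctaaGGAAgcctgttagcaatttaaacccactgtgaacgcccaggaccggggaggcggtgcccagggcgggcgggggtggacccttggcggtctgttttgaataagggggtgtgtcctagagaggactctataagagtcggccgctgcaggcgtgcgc
Smad6: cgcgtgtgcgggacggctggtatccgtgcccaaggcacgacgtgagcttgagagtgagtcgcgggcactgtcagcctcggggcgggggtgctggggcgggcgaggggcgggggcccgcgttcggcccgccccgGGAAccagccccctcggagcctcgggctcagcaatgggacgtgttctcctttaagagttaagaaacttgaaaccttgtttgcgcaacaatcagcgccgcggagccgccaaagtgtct
Bmp4: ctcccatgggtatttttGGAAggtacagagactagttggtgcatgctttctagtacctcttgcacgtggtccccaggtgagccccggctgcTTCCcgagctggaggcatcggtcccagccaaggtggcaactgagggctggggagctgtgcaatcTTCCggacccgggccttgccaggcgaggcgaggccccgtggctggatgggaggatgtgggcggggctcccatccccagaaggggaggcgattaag
The Eng window held 3 such cores, at 240, 51 and 5 bases before the start, the Id3 window 3, the Bmp4 window 3 and the Smad6 window 1. GGAA on either strand occurred in 93.4% of all 32851 windows of this length, with a median of 3 matches a window, so these counts are ordinary. The Smad palindrome GTCTAGAC, which reads alike on both strands, occurred in 0.167% of all windows and in none of the 6. GGCGCC, a GC-rich element bound by BMP Smads that also reads alike on both strands, occurred in 9.59% of all windows and, of the 6, in Bmpr2 alone. No match of 1 of these motifs overlapped a match of another in the 6 windows. A match is a description of letters, and none of these windows was tested for binding.

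Levels are the log2 processed signal minus the 75th percentile of the array, and a difference is on that log2 scale with the standard error (SE) of the fit. A gene was called where its adjusted p from limma, by Benjamini-Hochberg over all 24607 genes, was under 0.05. Between 50.6% and 59.9% of probes were well above background on an array, no spot was saturated, and replicate arrays had correlations of 0.975 to 0.992 over the genes (genes are no independent replicates). How many arrays there are limits the precision. Nothing in the labels ties replicate arrays to separate embryos, so the p-values rest on how far these samples spread, and that spread may be technical. The arrays of each tissue shared 1 slide and the gates its columns. In each column controls lay in rows 1 and 2 and Tie-2-Etv2 samples in rows 3 and 4. Tissue and slide, gate and column, and genotype and row therefore cannot be told apart. Etv2 (E- C -0.14 and -0.14, Tg 2.58 and 2.13, and Y- C -2.60 and -2.96, Tg 3.90 and 3.26) lay higher in Tie-2-Etv2 cells of all 4 populations. It read -2.39 and -2.75 in E+ C and 0.10 and 0.93 in E+ Tg. In Y+ C it read -6.20, not well above background, and -2.09, and in Y+ Tg 2.11 and 1.76. The gap between the Y+ C arrays enters the SE of 0.96 that all 4 comparisons share. Etv2 passed the limma test in the yolk sac alone (embryo adjusted p = 0.574 and 0.124), although no arrays of the 2 genotypes overlapped in the embryo.

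The sorted populations carried the markers of their gates in controls, with exceptions that bear on the results. The 14 endothelial markers, among them Cdh5, Kdr and Pecam1, summed to 9.99 to 10.1 in E- C and 10.2 to 10.3 in Y- C. In the CD45+ controls the same sum was 5.70 to 6.13 in E+ C and 5.76 to 5.81 in Y+ C, although both gates are labelled VE-cadherin-positive. The 12 macrophage markers summed to 10.9 in E+ C and to 10.9 to 11.3 in Y+ C. Their sums were 3.95 to 4.24 in E- C and 5.03 to 5.26 in Y- C. Of the 12 markers, 6 to 10 were well above background on E- C arrays and 6 to 8 on Y- C arrays. C1qa and Lyz2 were well above background on none of these arrays. In Tie-2-Etv2 cells these sums differed from control in both tissues. E- Tg cells had megakaryocyte sums of 7.91 to 8.43 against 3.19 to 3.65 in controls, and leukocyte sums of 6.69 to 6.82 against 4.44 to 4.65. E+ Tg cells had endothelial sums of 7.33 to 7.72, above E+ C, and macrophage sums of 9.90 to 10.4, below E+ C. Y- Tg cells had endothelial sums of 9.46 to 9.55, leukocyte sums of 8.59 to 9.04 against 4.28 to 4.31 in controls, and megakaryocyte sums of 9.72 to 10.1 against 3.20 to 3.48. Y+ Tg cells had macrophage sums of 7.66 to 7.90 and endothelial sums of 8.44 to 8.47. Markers of other cells were present too. The 10 yolk sac endoderm and liver markers summed to 9.36 to 9.47 in Y- C and 6.59 to 9.23 in Y- Tg. Their sums were 8.10 to 9.66 in Y+ C, 6.88 to 8.29 in Y+ Tg and 5.73 to 6.74 in E- C. The 10 erythroid markers summed to 9.98 to 10.5 in Y- C, 9.27 to 9.83 in Y- Tg and 8.41 to 9.40 in E- C. In these bulk samples fewer cells of a type and less RNA per cell cannot be told apart, and the part of cell makeup in the results below was not tested.

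**Figure D1:**
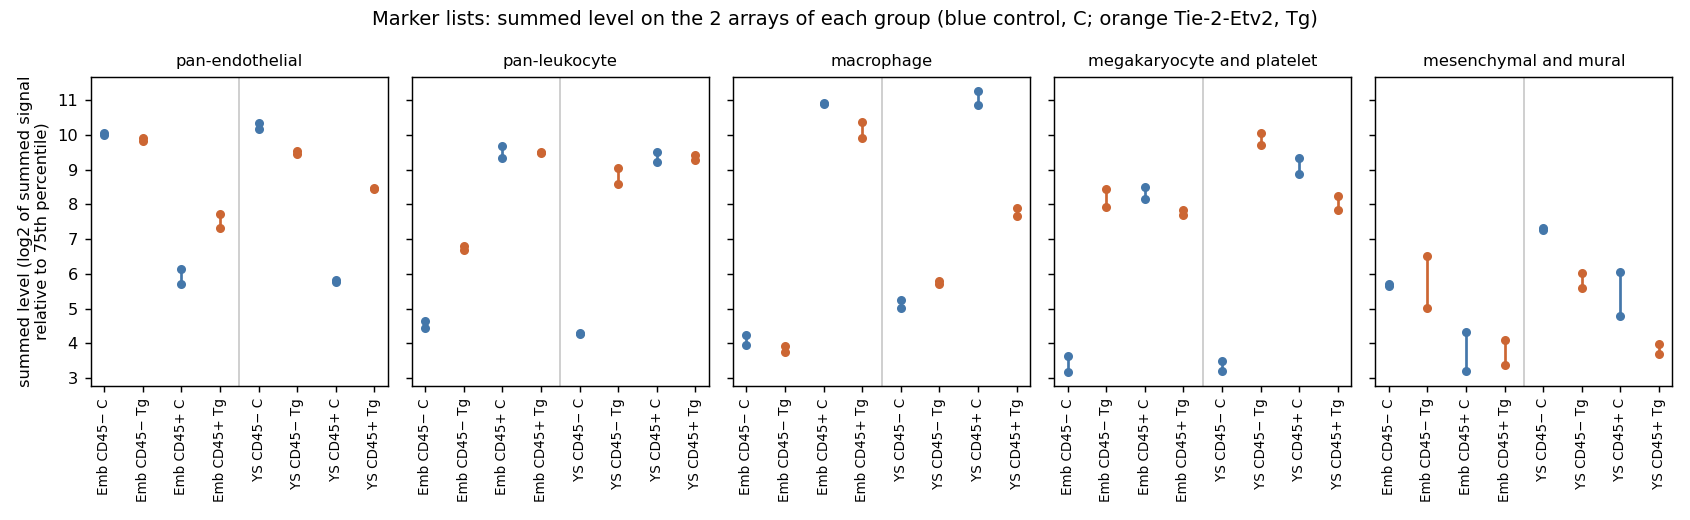
Summed level of 5 marker lists (vertical axis: log2 of the summed signal relative to the 75th percentile of the array) in each of the 8 groups, with 1 point per array, blue for control and orange for Tie-2-Etv2, and a line joining the 2 arrays. The Y+ Tg arrays sit at 8.44 to 8.47 for endothelial markers, above the Y+ C arrays, and at 7.66 to 7.90 for macrophage markers, below them.

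The transgene comparison asked how each population of Tie-2-Etv2 cells differed from its control. In yolk sac CD45- cells all 10 genes were called, where 41.9% of all genes were called: 9 fell (15.8% of all genes were called lower) and Bmp2 rose (26.1% higher). In yolk sac CD45+ cells 4 of 10 were called, against 32.6% of all genes: Eng rose (18.1% higher), while Acvrl1, Id3 and Tgfbr2 fell (14.5% lower). In the embryo 0 of 10 were called by limma in CD45- cells (1.28% of all genes) and 0 of 10 in CD45+ cells (3.04% of all genes). At an unadjusted p under 0.05 there was 1 gene in embryo CD45- cells (Bmpr2) and there were 3 in embryo CD45+ cells (Eng, Bmpr2 and Bmp2). The median difference of the 10 genes was -2.42 in yolk sac CD45- cells, beside 0.18 over all genes tested. It was -0.67 beside 0.04 in yolk sac CD45+ cells, -0.44 beside -0.03 in embryo CD45- cells and -0.26 beside -0.03 in embryo CD45+ cells.

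Of the yolk sac calls, 8 of 10 in CD45- cells and 3 of 4 in CD45+ cells were kept in every alternative processing that gave a value. Scaling over probes detected on all arrays lowered the median of all genes in yolk sac CD45- cells by 0.32. Where 0 is placed for the differences given here thus depends on the scaling, and this shift sets no upper limit to that. The same scaling also turned the split of all calls there, from 6432 higher and 3881 lower to 4069 and 5620. In no alternative did a called difference of the 10 genes change sign.

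**Figure D2:**
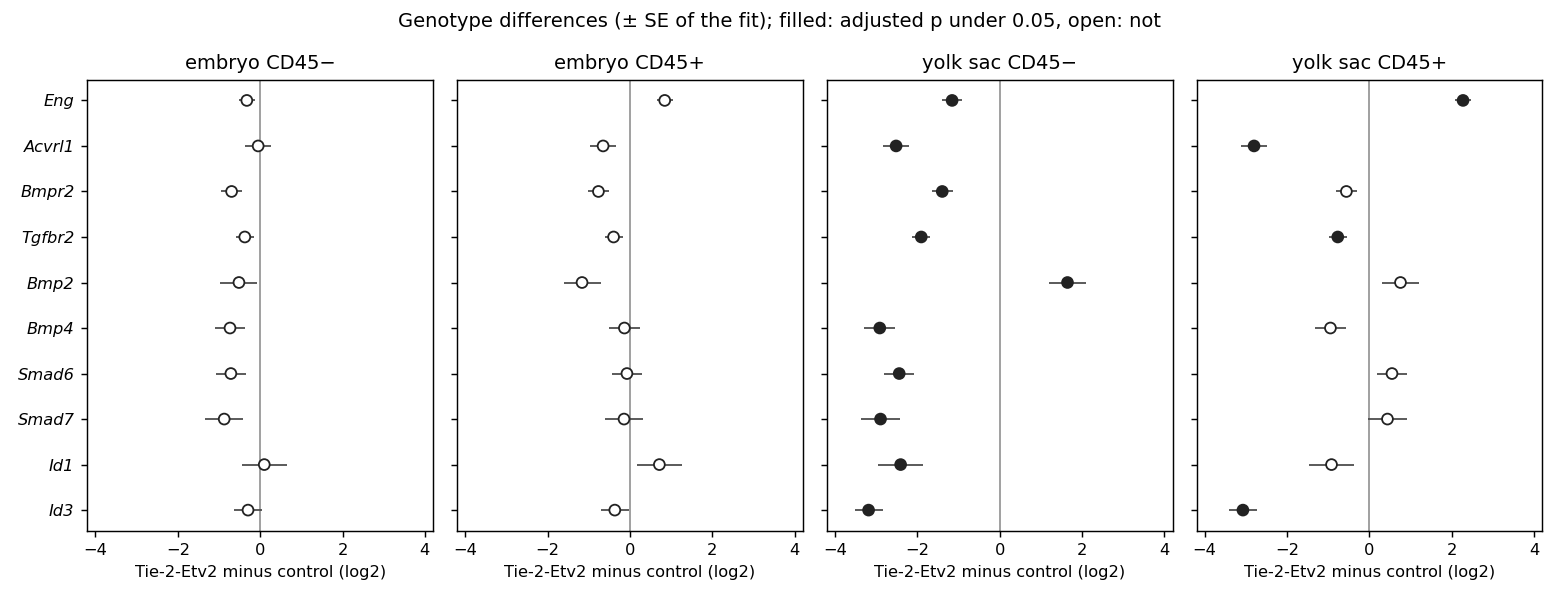
Tie-2-Etv2 minus control (horizontal axis, log2) for each of the 10 genes in the 4 sorted populations, with the SE of the fit as bars; filled points had an adjusted p under 0.05. In yolk sac CD45- cells all points but Bmp2 lie left of 0, and in yolk sac CD45+ cells Eng lies at 2.27 while Acvrl1 and Id3 lie at -2.80 and -3.07.

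Bmp4, the ligand tied to early yolk sac blood and vessel formation, was higher in the CD45- than in the CD45+ cells of both control tissues. Its level was 3.43 and 3.07 in Y- C and 0.30 and 0.38 in Y- Tg, with no overlap between the groups. It fell by 2.91 ± 0.37 (SE, limma adjusted p = 0.000193), which is 7.53-fold. In embryo CD45- cells it stood at 3.54 and 3.51 in controls and 2.91 and 2.67 in Tie-2-Etv2 cells, a difference of -0.73 ± 0.37 that was not called (adjusted p = 0.808) although the arrays did not overlap. In CD45+ cells it lay between -2.40 and -0.48 on all 8 arrays. There it read -1.06 and -1.41 in Y+ C against -2.40 and -1.97 in Y+ Tg, a difference of -0.95 ± 0.37 (adjusted p = 0.0784, and 0.0257 on the yolk sac slide alone). The probe lay on chromosome 14 at 47003391 to 47003450 (mm9, as in the files). A second Bmp4 probe, at 47003198 to 47003257, was well above background on 1 of 16 arrays and was not used.

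Bmp2, a related BMP ligand, was the single gene of the 10 that rose in yolk sac CD45- cells. It read 2.99 and 2.84 in Y- C and 4.85 and 4.27 in Y- Tg, with no overlap, a rise of 1.65 ± 0.45 (adjusted p = 0.0141). Removal of Y- C1 (adjusted p = 0.0509), Y- C2 (0.0716) or Y- Tg1 (0.103) lost the call. In Y+ cells it read 2.76 and 3.11 in controls and 3.75 and 3.62 in Tie-2-Etv2 cells (difference 0.75 ± 0.45, adjusted p = 0.236). In the embryo its values lay the other way, at 4.97 and 4.39 in E+ C against 3.84 and 3.20 in E+ Tg (-1.16 ± 0.45, adjusted p = 0.223), and at 4.32 and 3.29 in E- C against 3.92 and 2.67 in E- Tg. Replicates of Bmp2 were far apart in E- cells, and none of the 7 neighbouring pairs of groups, ordered by mean, was separated. Its probe lay on chromosome 2 at 133388260 to 133388319.

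Eng encodes endoglin, a coreceptor of endothelial cells that presents BMP9 and TGF-beta to their receptors. It separated the gates in controls, at 4.85 and 5.07 in E- C and 5.09 and 5.08 in Y- C against 0.88 and 0.69 in E+ C and 0.86 and 0.95 in Y+ C. In Tie-2-Etv2 cells it read 4.66 and 4.61 in E- Tg, 1.36 and 1.90 in E+ Tg and 3.13 and 3.22 in Y+ Tg. In Y- Tg it read 3.93 on array 1, and the spot on array 2 was flagged as uneven and dropped by the fit (3.60 if kept).

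Eng thus went both ways in the yolk sac. It rose by 2.27 ± 0.19 in CD45+ cells (4.83-fold, adjusted p = 4.32e-05) and fell by 1.16 ± 0.24 in CD45- cells (adjusted p = 0.00382, from 3 arrays), with no overlap in either. The genotype effects of the 2 gates differed by 3.43 ± 0.31 (adjusted p = 0.000103), a call kept in every alternative that gave a value. The endothelial marker sum moved the same way in both gates, and Cdh5 itself differed by 3.25 ± 0.30 between Y+ Tg and Y+ C (adjusted p = 4.16e-05) and by -1.01 ± 0.30 between Y- Tg and Y- C (adjusted p = 0.0214). In E+ cells the arrays did not overlap either, but the difference of 0.84 ± 0.19, beside a Cdh5 difference of 1.98 ± 0.30 (adjusted p = 0.00599), stopped short of the threshold (adjusted p = 0.052). It passed with normexp (0.0311), detected-probe scaling (0.0397), the strict filter (0.0383), a trended robust prior (0.0215) and without E+ Tg1 (0.0244). Ordered by mean, the 8 groups ran from Y- C through E- C, E- Tg, Y- Tg, Y+ Tg and E+ Tg to Y+ C and E+ C, and the last 2 of these overlapped. The probe lay on chromosome 2 at 32537268 to 32537327.

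Acvrl1 encodes ALK1, the type I receptor that endoglin serves. Like Eng it was highest in Y- C and lower in Y- Tg. In Y+ Tg it lay below control, where Eng lay above. It read 4.47 and 4.33 in Y- C against 1.46 and 2.31 in Y- Tg, and it fell by 2.52 ± 0.31 (5.72-fold, adjusted p = 0.00016). In Y+ cells it read 2.56 and 1.85 in controls against -0.68 and -0.51 in Tie-2-Etv2 cells, a fall of 2.80 ± 0.31 (6.98-fold, adjusted p = 0.000113). These Y+ Tg values were the lowest of all 16 arrays for this gene. On the same arrays Eng, Cdh5 and the endothelial sum were above their controls. The macrophage sum was below its control there, at 7.66 to 7.90 against 10.9 to 11.3. The part of cell makeup in the Acvrl1 result was not tested. In the embryo it read 3.20 and 2.95 in E- C, 3.04 and 3.01 in E- Tg, 2.08 and 1.79 in E+ C and 1.56 and 1.01 in E+ Tg. The embryo differences were -0.05 ± 0.31 and -0.65 ± 0.31 and were not called (adjusted p = 1 and 0.348). The CD45- genotype effect in the yolk sac minus that in the embryo was -2.47 ± 0.44 (adjusted p = 0.00678; tissue and slide cannot be told apart). The probe lay on chromosome 15 at 100974010 to 100974069.

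Bmpr2, the type II receptor of BMP ligands, read 1.42 and 0.71 in Y- C and -0.64 and -0.02 in Y- Tg. It fell by 1.40 ± 0.26 (2.63-fold, adjusted p = 0.00175) with no overlap. In the other populations every Tie-2-Etv2 array lay below every control array, but no difference was called. It read 2.14 and 1.92 in E- C and 1.32 and 1.35 in E- Tg (-0.69 ± 0.26, adjusted p = 0.54), and 0.42 and 0.54 in E+ C and -0.27 and -0.30 in E+ Tg (-0.76 ± 0.26, adjusted p = 0.159). In Y+ cells it read 0.06 and 0.29 in controls and -0.51 and -0.25 in Tie-2-Etv2 cells (-0.56 ± 0.26, adjusted p = 0.128). Groups without overlap are common here, since 33.6%, 43.2%, 75.5% and 65.7% of all genes were so separated in embryo CD45-, embryo CD45+, yolk sac CD45- and yolk sac CD45+ cells. The probe lay on chromosome 1 at 59927276 to 59927335.

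Tgfbr2, the type II receptor of TGF-beta, was found in both gates of the controls, at 5.57 and 5.54 in Y- C, 5.18 and 5.03 in Y+ C, 4.87 and 4.78 in E- C and 4.78 and 5.16 in E+ C. It read 3.30 and 4.00 in Y- Tg and fell by 1.91 ± 0.22 (3.75-fold, adjusted p = 9.98e-05). In Y+ Tg it read 4.29 and 4.39 and fell by 0.77 ± 0.22 (adjusted p = 0.0205). That second call was lost on the yolk sac slide alone (adjusted p = 0.0576), on the 4 arrays alone (0.0642), and without Y+ C1 (0.0954), Y+ Tg1 (0.106) or Y+ Tg2 (0.0676). In the embryo it read 4.44 and 4.46 in E- Tg and 4.63 and 4.52 in E+ Tg, and neither difference was called (-0.37 ± 0.22 and -0.40 ± 0.22). A second probe of the gene moved the same way in a fit of single probes, with -2.11 ± 0.33 for Y- (adjusted p = 0.000659) and -0.97 ± 0.33 for Y+ cells (adjusted p = 0.0468). The probes lay on chromosome 9 at 115997155 to 115997214 and 115999496 to 115999555. For CD45- cells, the yolk sac effect minus the embryo effect was -1.53 ± 0.31 (adjusted p = 0.0108).

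**Figure D3:**
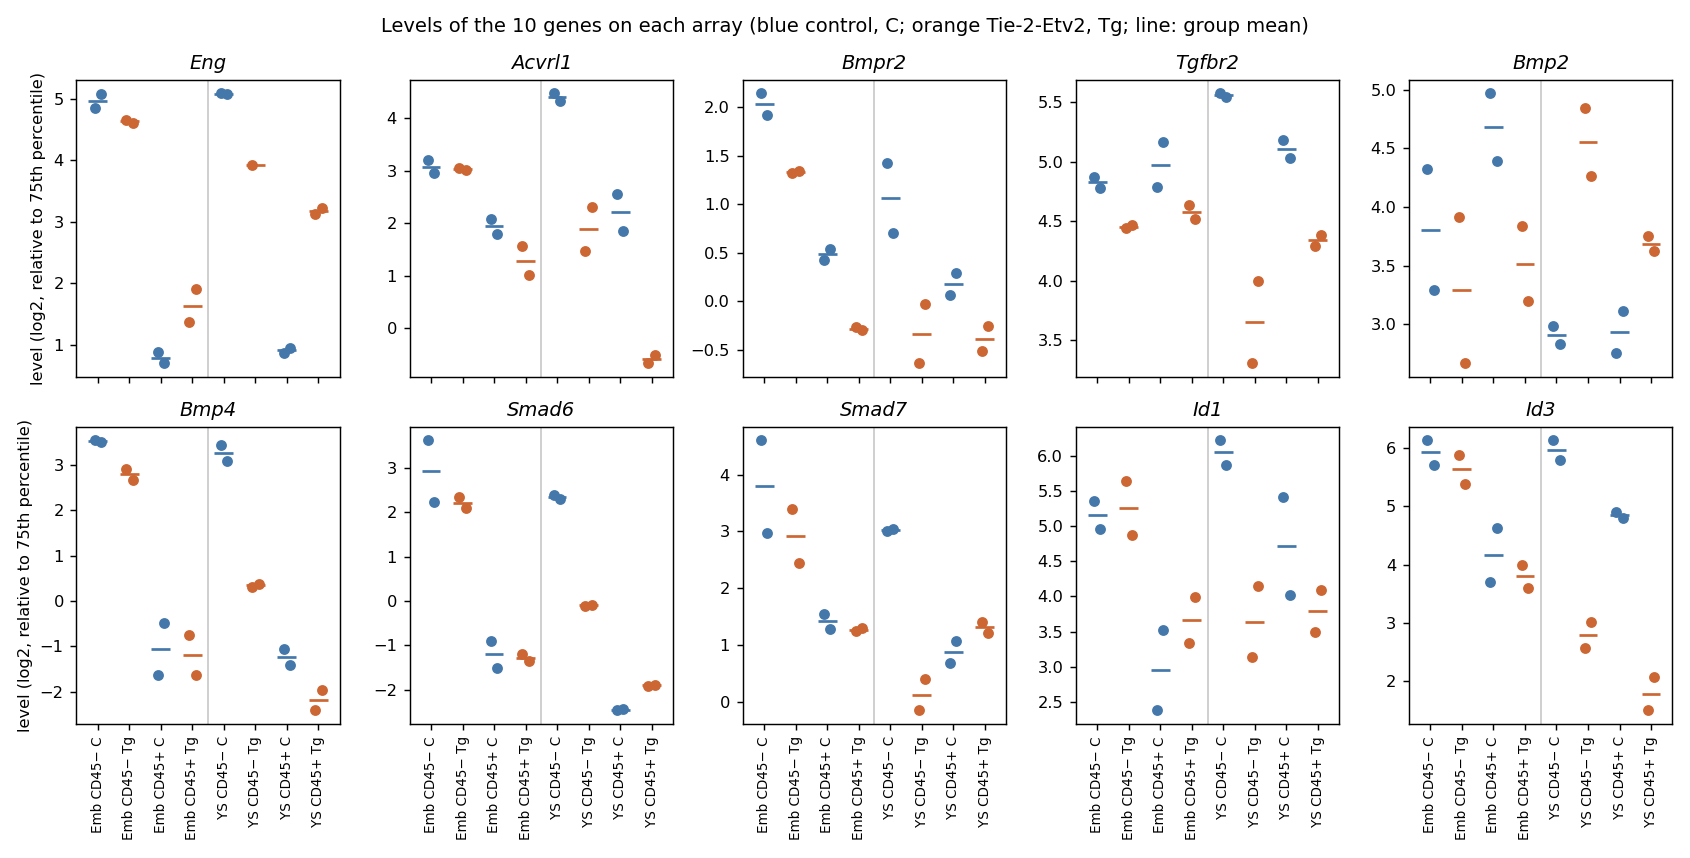
Level of each gene (vertical axis: log2 signal relative to the 75th percentile of the array, with a scale of its own in each panel) on the 16 arrays, 1 point per array and a line at the group mean, blue for control and orange for Tie-2-Etv2. Embryo groups stand left of the grey line and yolk sac groups right of it; Eng has 1 point in Y- Tg, and its Y+ Tg arrays at 3.13 and 3.22 stand above Y+ C, where those of Acvrl1 and Id3 stand below.

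Smad6 and Smad7, the inhibitory Smads that block receptor signalling and are themselves induced by it, fell together in yolk sac CD45- cells. Smad6 read 2.38 and 2.30 in Y- C and -0.11 and -0.09 in Y- Tg, a fall of 2.44 ± 0.36 (5.43-fold, adjusted p = 0.000465). Smad7 read 3.00 and 3.05 in Y- C and -0.14 and 0.41 in Y- Tg, a fall of 2.89 ± 0.46 (7.43-fold, adjusted p = 0.000736). Neither gene overlapped between the genotypes there.

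Both inhibitory Smads of the Y+ cells lay slightly above control and were not called. Smad6 read -2.46 and -2.43 in Y+ C and -1.91 and -1.90 in Y+ Tg (0.55 ± 0.36, adjusted p = 0.287, and 0.026 on the yolk sac slide alone). Smad7 read 0.69 and 1.08 in Y+ C and 1.41 and 1.22 in Y+ Tg (0.44 ± 0.46, adjusted p = 0.516). The genotype effects of the 2 yolk sac gates differed by 2.99 ± 0.51 for Smad6 (adjusted p = 0.00271) and by 3.33 ± 0.66 for Smad7 (adjusted p = 0.00557), and both calls were kept in every alternative.

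In embryo CD45- cells the inhibitory Smads had 1 high control array. Smad6 read 3.62 and 2.23 in E- C and 2.34 and 2.10 in E- Tg, and Smad7 read 4.61 and 2.98 in E- C and 3.39 and 2.44 in E- Tg. Array E- C1 was the high one for both genes. Without E- C2 the Smad6 difference of -0.71 ± 0.36 (adjusted p = 0.808) became -1.41 and was called (0.0212). In E+ cells Smad6 lay between -1.51 and -0.90 and Smad7 between 1.25 and 1.55 over both genotypes, with overlap. The Smad6 probe lay on chromosome 9 at 63800980 to 63801039.

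Id1 and Id3, inhibitors of basic helix-loop-helix factors and common readouts of BMP signalling, both fell in yolk sac CD45- cells. Id3 read 6.14 and 5.80 in Y- C and 2.56 and 3.01 in Y- Tg, a fall of 3.18 ± 0.34 (9.09-fold, adjusted p = 6.96e-05). Id1 read 6.22 and 5.87 in Y- C and 3.14 and 4.14 in Y- Tg, a fall of 2.41 ± 0.55 (5.30-fold, adjusted p = 0.00547). Without Y- Tg1 the Id1 call was lost (adjusted p = 0.056).

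Among Y+ cells Id3 fell and Id1 was not called. Id3 read 4.90 and 4.81 in Y+ C and 1.50 and 2.06 in Y+ Tg, a fall of 3.07 ± 0.34 (8.42-fold, adjusted p = 0.000113). Id1 read 5.41 and 4.02 in Y+ C and 3.50 and 4.09 in Y+ Tg, which overlap (-0.92 ± 0.55, adjusted p = 0.233). Id1 had the widest replicate gap in Y+ C, and whether the 2 Id genes differed in their response was not tested.

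In the embryo both Id genes overlapped between genotypes. Id3 read 6.14 and 5.72 in E- C, 5.89 and 5.38 in E- Tg, 3.70 and 4.63 in E+ C and 4.00 and 3.60 in E+ Tg. Id1 read 5.36 and 4.96 in E- C, 5.64 and 4.87 in E- Tg, 2.38 and 3.52 in E+ C and 3.34 and 4.00 in E+ Tg. The Id3 effect in CD45- cells, yolk sac minus embryo, was -2.89 ± 0.48 (adjusted p = 0.00525), a call kept in every alternative. The Id1 probe lay on chromosome 2 at 152563083 to 152563142 and the Id3 probe on chromosome 4 at 135700075 to 135700249.

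Tests of the difference between genotype effects gave 14 calls in all. Between the tissues, 6 of 10 genes were called in CD45- cells (16.1% of all genes) and 3 of 10 in CD45+ cells (3.16%). Between the gates, 5 of 10 were called in the yolk sac (18.4%) and 0 of 10 by limma in the embryo (1.14%), where Eng alone had an unadjusted p under 0.05 (adjusted p = 0.105, and 0.039 without E+ Tg1). Of the 14 calls 6 were kept in every alternative that gave a value: Acvrl1, Tgfbr2 and Id3 between tissues in CD45- cells, and Eng, Smad6 and Smad7 between yolk sac gates. The other 8 were each lost without single arrays and are less settled.

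Among those 8, the CD45- effects of Bmp4 (-2.18 ± 0.53), Smad6 (-1.73 ± 0.51) and Bmp2 (2.16 ± 0.64) differed between tissues at adjusted p of 0.0219, 0.0454 and 0.0444. The Bmp4 call was lost without E- Tg1, E- Tg2, Y- C1, Y- C2 or Y- Tg1 (adjusted p of 0.0512 to 0.0767). The Smad6 call was lost without E- C2, E- Tg1, E- Tg2 or any of the 4 yolk sac CD45- arrays (0.0568 to 0.126, with a difference of -1.03 without E- C2), and the Bmp2 call without E- C1, E- Tg2, Y- C1, Y- C2 or Y- Tg1 (0.0986 to 0.156). Each of these 3 was thus lost without 5 or 7 of the 8 arrays. Of the genes not called there, Smad7 and Id1 each passed in 7 of 19 alternatives and Eng in 3 of 18, with lowest adjusted p of 0.00996 (Smad7, without E- C1), 0.0268 (Id1, normexp) and 0.0224 (Eng, quantile normalization). Of the 8 fits without 1 array, Id1 passed in the one without Y- Tg2 (0.0417).

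The CD45+ effects of Eng (1.43 ± 0.27), Acvrl1 (-2.15 ± 0.44) and Id3 (-2.71 ± 0.48) differed between tissues at adjusted p of 0.0293, 0.0325 and 0.0197. The Eng call was lost without E+ C1, E+ Tg1, Y+ C1, Y+ Tg1 or Y+ Tg2 (0.0718 to 0.108). The Acvrl1 call was lost without E+ C1, E+ C2, E+ Tg1, Y+ C1, Y+ Tg1 or Y+ Tg2 (0.0544 to 0.141), and the Id3 call without E+ Tg1, Y+ C1 or Y+ Tg1 (0.0617 to 0.0974). Between yolk sac gates the effects of Tgfbr2 (1.13 ± 0.31, adjusted p = 0.0276) and Bmp4 (1.96 ± 0.53, adjusted p = 0.0263) differed. Each of these was lost without 6 of the 8 yolk sac arrays, which for Tgfbr2 were all but Y- Tg2 and Y+ C1 and for Bmp4 all but Y+ C1 and Y+ Tg1.

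The gate comparison asked what the CD45 sort separated within 1 genotype. In embryo controls 8 of 10 genes were called (36.6% of all genes), all 8 lower in CD45+ cells (16.6% lower). In yolk sac controls 7 of 10 were called (38.5%), all 7 lower (15.8%). The 3 strongest separations in yolk sac controls were those of Smad6 (-4.79 ± 0.36), Bmp4 (-4.49 ± 0.37) and Eng (-4.18 ± 0.19), and in embryo controls Bmp4 (-4.57), Eng (-4.17) and Smad6 (-4.13). Bmp2 and Tgfbr2 were called in neither control comparison, with differences of 0.87 and 0.15 in the embryo and 0.02 and -0.45 in the yolk sac. Tgfbr2 passed in yolk sac controls with quantile normalization (-0.82, adjusted p = 0.0274) and detected-probe scaling (-0.71, 0.0424), and Id1, at -1.33 (adjusted p = 0.0802), passed without Y+ C1 (0.0237). Some control calls were lost without 1 array: Acvrl1 without E- C1 or E+ C2 and Id1 without E- C1 or E+ C1 in the embryo, and Bmpr2 without Y- C1 or Y+ C1 and Id3 without any of the 4 control arrays in the yolk sac (adjusted p of 0.0540 to 0.177).

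Between the gates of Tie-2-Etv2 cells the embryo gave more calls than the yolk sac. In the embryo 7 of 10 genes were called (30.3% of all genes), all 7 lower in CD45+ cells (13.9%), with Id1 short of the threshold (adjusted p = 0.0505). In the yolk sac 3 of 10 were called (10.4%), all 3 lower (5.94%): Acvrl1 (-2.48 ± 0.31), Bmp4 (-2.53 ± 0.37) and Smad6 (-1.80 ± 0.36). Eng differed there by -0.75 ± 0.24 (adjusted p = 0.0863), and Smad7 by 1.19 ± 0.46 (adjusted p = 0.169, and 0.0318 on the slide alone). Tgfbr2 differed by 0.69 ± 0.22 (adjusted p = 0.082, and 0.0137 without Y- Tg2). The Smad7 call of the embryo was lost without E- Tg1, E+ Tg1 or E+ Tg2 (adjusted p of 0.0792 to 0.167), and the Smad6 call of the yolk sac without Y- Tg2 (0.0532) or Y+ Tg1 (0.0557).

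The tissue comparison set yolk sac against embryo cells of 1 gate and genotype. In control CD45- cells 2 of 10 genes were called. Acvrl1 was higher in the yolk sac (1.33 ± 0.31, adjusted p = 0.0228), where 5.44% of all genes were called higher, and Bmpr2 was lower (-0.96 ± 0.26, adjusted p = 0.0391), where 6.11% were called lower. The Acvrl1 call was lost without any 1 of the 4 arrays, and the Bmpr2 call without E- C1, E- C2 or Y- C2 (adjusted p of 0.0646 to 0.273), and without Y- C2 the Bmpr2 difference was -0.61. Without E- C2, Smad6 (-1.29, 0.0144) and Smad7 (-1.58, 0.0317) passed as well. In control CD45+ cells 0 of 10 were called by limma (1.71% of all genes), with 3 at an unadjusted p under 0.05 (Bmp2, Smad6 and Id1).

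In Tie-2-Etv2 CD45- cells 9 of 10 genes were called (30.6% of all genes), all 9 lower in the yolk sac (12.5% lower), from -2.85 for Id3 to -0.71 for Eng. Of the 9, Bmpr2, Bmp4, Smad6, Smad7 and Id3 were kept in every alternative. The calls of Acvrl1, Tgfbr2 and Id1 were lost without E- Tg1, E- Tg2 or Y- Tg1, and that of Eng without E- Tg1, E- Tg2 or Y- Tg2 (adjusted p of 0.0581 to 0.286). Bmp2 differed by 1.27 ± 0.45 (adjusted p = 0.0563, and 0.0248 without E- Tg1). In Tie-2-Etv2 CD45+ cells 3 of 10 were called (12.6% of all genes): Eng was higher in the yolk sac by 1.55 ± 0.19 (5.32% higher), and Acvrl1 (-1.88 ± 0.31) and Id3 (-2.02 ± 0.34) were lower (7.31% lower). The Acvrl1 call was lost without E+ Tg1 (0.0567) and the Id3 call without E+ Tg1 (0.0594) or Y+ Tg1 (0.0508).

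The rest of the pathway was read from 104 other genes, of which 94 were tested. They too were listed with earlier results of these data known. In yolk sac CD45- cells 4 of the 94 were called higher and 51 lower (median -1.13, beside 0.18 over all genes), where 26.1% of all genes were called higher and 15.8% lower. In yolk sac CD45+ cells 13 were called higher and 22 lower (median -0.30, beside 0.04), where 18.1% and 14.5% of all genes were, so the higher calls lay below the background share. In embryo CD45+ cells 5 rose and 1 fell (3.04% of all genes were called), and in embryo CD45- cells 1 rose and 0 fell (1.28%). The counts by role that follow stand against these same shares, and nothing particular to a role is read from them. Genes are named by the rule on largest called folds given below, so a gene named in 1 population may differ in others too. Of the 13 higher genes in yolk sac CD45+ cells 1, Gdf11, was well above background in neither genotype and has no fold, and its call was lost without Y+ C2 or Y+ Tg2 (adjusted p = 0.0516 and 0.0589).

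Among ligands, Bmp8a, which has a related gene in Bmp8b, was called higher in Tie-2-Etv2 cells of all 4 populations. It rose by 3.43 ± 0.38 in Y- cells, 3.05 in Y+ cells, 2.49 in E- cells (adjusted p = 0.00717) and 1.75 in E+ cells (adjusted p = 0.0363). Of the 9 other BMP ligands tested in yolk sac CD45- cells, Bmp8a rose and 3 were called lower. Bmp6 fell by 3.44 ± 0.64, and Bmp5 was at least 1.24-fold and Gdf2, which encodes the ALK1 ligand BMP9, at least 1.35-fold lower. Both were well above background on 1 of the 2 Y- C arrays and on neither Y- Tg array. Of 14 TGF-beta, activin and nodal ligands 1 rose and 8 fell in yolk sac CD45- cells, and 2 were called higher and 3 lower in yolk sac CD45+ cells. Tgfb1 rose by 2.05 ± 0.24 in yolk sac CD45- cells and 0.72 ± 0.24 in yolk sac CD45+ cells (adjusted p = 0.0384), while Tgfb2 fell by 2.54 and 1.30. Gdf9 fell by 3.08 and 1.34, and Gdf15 fell by 3.25 in the CD45+ cells. The mean of Gdf15 was also lower in Y- Tg, at -1.71 against 0.08 in Y- C. Inhba, an activin subunit, rose by 2.26 ± 0.48 in embryo CD45+ cells (adjusted p = 0.0332) and was at least 1.20-fold lower in yolk sac CD45- cells, where 1 control array alone had it well above background. Several ligand calls depended on single arrays. The Bmp8a call was lost without E- Tg1 (adjusted p = 0.0519) or E- Tg2 (0.0618) in E- cells, and without E+ C1, E+ C2 or E+ Tg2 in E+ cells (0.0540 to 0.296), where that of Inhba was lost without E+ C2 (0.125) or E+ Tg2 (0.291). The Gdf2 call was lost without any 1 of the 4 Y- arrays (0.0720 to 0.163). In Y+ cells the Tgfb1 call was lost without any 1 of the 4 arrays (0.0784 to 0.190), that of Tgfb2 without Y+ C1 (0.0709) or Y+ Tg1 (0.0751), and that of Gdf15 without Y+ C2 (0.0555) or Y+ Tg2 (0.0807).

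Of the 12 other receptors and coreceptors tested, 1 rose and 7 fell in yolk sac CD45- cells, and 2 rose and 5 fell in yolk sac CD45+ cells. Tgfbr3 (betaglycan), the coreceptor of TGF-beta that resembles endoglin, rose by 4.89 ± 0.24 in yolk sac CD45+ cells (29.6-fold, adjusted p = 4.63e-06). It also rose in E+ cells, by 3.24 ± 0.24 (adjusted p = 8.36e-05), and in Y- cells, by 0.98 ± 0.24 (adjusted p = 0.0077, lost without Y- C2 at 0.0526). In E+ and Y+ cells the endothelial sum was above control as well, and Tek differed by 3.50 ± 0.31 in E+ cells (adjusted p = 0.000225) and by 5.02 ± 0.31 in Y+ cells (adjusted p = 7.26e-06). The part of endothelial cells in the Tgfbr3 result was not tested. The BMP type I receptors Bmpr1a and Acvr1 fell by 2.93 and 2.30 in yolk sac CD45- cells and by 3.48 and 1.56 in yolk sac CD45+ cells. The BMP coreceptor Rgmb fell by 3.05 and 3.75, the latter against a group with 1 of 2 arrays well above background. Acvr1b, an activin type I receptor, rose by 0.81 in yolk sac CD45+ cells, and Tgfbr1, the TGF-beta type I receptor, fell by 1.12 ± 0.23 in embryo CD45+ cells (adjusted p = 0.0276). The mean of Tgfbr1 was below control in the other populations too. It was 2.17 against 2.59 in E-, 0.88 against 2.04 in Y- and 1.55 against 2.48 in Y+ cells. The Acvr1b call was lost without Y+ C2 (0.0790) or Y+ Tg2 (0.118), and the Tgfbr1 call without E+ C1, E+ C2 or E+ Tg2 (0.0548 to 0.229).

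Among 25 extracellular antagonists and modulators, 1 rose and 14 fell in yolk sac CD45- cells. The activin antagonist follistatin (Fst) stood at 5.72 ± 0.21 (SD, n = 2) in Y- C and -0.31 ± 1.04 in Y- Tg, and it fell by 6.03 ± 0.54 (65.3-fold, adjusted p = 2.24e-05). Bmper, an endothelial BMP-binding protein, fell by 4.87 ± 0.74. In yolk sac CD45+ cells 4 rose and 5 fell. Lrrc32, which tethers latent TGF-beta to the cell surface, rose by 3.71 ± 0.48, and Thbs1, an activator of latent TGF-beta, by 2.20 ± 0.48. The mean of Lrrc32 was -0.77 in Y+ C, 2.94 in Y+ Tg and 5.65 in Y- C. The endothelial sum was also above control in Y+ Tg, and the part of endothelial cells in the Lrrc32 rise was not tested. Thbs1 also rose in embryo CD45+ cells by 2.44 ± 0.48 (adjusted p = 0.022), a call lost without any 1 of the 4 arrays (0.0640 to 0.164). Ltbp1, which binds latent TGF-beta in the matrix, had control arrays at -0.03 and -3.13 in Y+ cells, and its difference of 2.43 ± 0.72 (adjusted p = 0.0257) was 3.98 without Y+ C1 and 0.88 without Y+ C2 (0.0555). That call was also lost without Y+ Tg1 (0.116) or Y+ Tg2 (0.0760). The Ltbp1 difference in Y- cells of 2.17 ± 0.72 (adjusted p = 0.0347) was lost without any 1 of the 4 arrays (0.0956 to 0.124). Fst fell by 2.10 in yolk sac CD45+ cells, a call lost without Y+ C1 or Y+ Tg2, and Ltbp3 by 0.85. The mean of Ltbp3 was also lower in Y- Tg, at -1.53 against 0.47 in Y- C.

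Among 18 other Smads and regulators, 0 rose and 8 fell in yolk sac CD45- cells, and 3 rose and 3 fell in yolk sac CD45+ cells. Pmepa1, a TGF-beta target that restrains Smad signalling, fell by 2.89 ± 0.39 and the corepressor Tgif1 by 2.24 ± 0.53 in CD45- cells, where Smad9 was at least 2.26-fold lower. In yolk sac CD45+ cells Smad4, the common partner of receptor Smads, rose by 0.62 ± 0.15, Smad5 by 0.80 ± 0.28 and Tgif2 by 0.98 ± 0.30. There Smad1 fell by 0.82 ± 0.16, Ski by 1.03 ± 0.25 and Zfyve16 by 1.62 ± 0.36. The Y- Tg means of Smad1, Ski and Zfyve16 were below Y- C too. They were -0.77 against 0.03, -2.83 against -1.95 and -0.28 against 0.38. Of these regulators, Smad1 and Pmepa1 kept their calls without any single array. The others were lost without some: Smad9 without Y- C1, Y- C2 or Y- Tg1 (0.0829 to 0.192), Tgif1 without Y- Tg1 (0.0501), Smad4 without Y+ Tg2 (0.0780), Ski and Zfyve16 without Y+ Tg1 (0.0722 and 0.0553), Tgif2 without Y+ C1, Y+ Tg1 or Y+ Tg2 (0.0666 to 0.155) and Smad5 without any 1 of the 4 Y+ arrays (0.0674 to 0.192).

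Of 16 other target genes, 0 rose and 11 fell in yolk sac CD45- cells (median -2.77). Ccn2, a matrix protein gene, fell by 4.39 ± 0.38 (20.9-fold, adjusted p = 1.98e-05), Tmem100, an endothelial target of ALK1, by 3.55 ± 0.53, and Hey2, an arterial transcription factor, by 3.52 ± 0.50 against a group with 1 of 2 arrays well above background. In yolk sac CD45+ cells 1 rose and 6 fell. Tgfbi fell by 3.37 ± 0.31 and Id2 by 2.74 ± 0.41 there, and Id4 was at least 2.66-fold lower, a call lost without Y+ C1 or Y+ Tg1. The Y- Tg means of these genes were below Y- C too. They were 1.00 against 3.71 for Tgfbi, 2.00 against 4.47 for Id2 and -3.60 against -0.59 for Id4. Gja4, the gap junction gene of arterial endothelium, rose by 2.36 ± 0.24 in yolk sac CD45+ and by 1.73 ± 0.24 in embryo CD45+ cells (adjusted p = 0.00393), the 2 populations in which Tek and the endothelial sum were also above control, and their part in it was not tested. Beside the falls, the 15 mural and mesenchymal markers summed to 7.26 to 7.32 in Y- C and 5.60 to 6.03 in Y- Tg, and to 4.80 to 6.06 in Y+ C and 3.69 to 3.99 in Y+ Tg. Myh11 and Des were well above background in Y- C but not in Y- Tg, where 12 of the 15 markers were. Neither was well above background in Y+ C or in Y+ Tg. The part of mural and mesenchymal cells in the result was not tested.

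**Figure D4:**
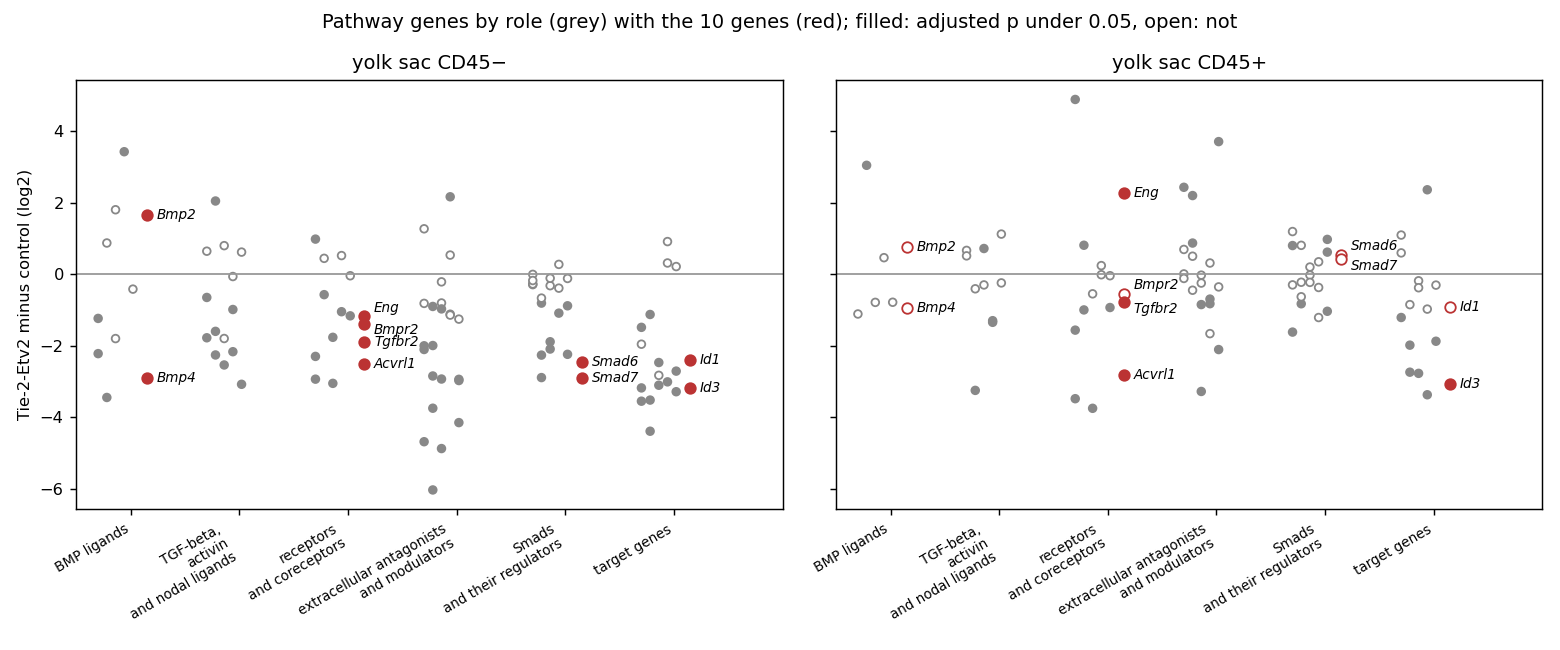
Tie-2-Etv2 minus control (vertical axis, log2) in yolk sac CD45- and CD45+ cells for other pathway genes by role (grey) and the 10 genes (red); filled points had an adjusted p under 0.05, and genes not well above background in both genotypes are not drawn. In CD45- cells the called points lie mostly below 0, down to Fst at -6.03, while in CD45+ cells Tgfbr3 at 4.89 and Lrrc32 at 3.71 lie at the top.

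The 10 genes did not share 1 pattern over the 8 groups. Closeness was measured as the root mean square (RMS) difference between the 8 group means, each gene centred on its own mean. Among the 10, Bmp4 and Smad6 were closest (RMS 0.44), followed by Bmpr2 and Smad7 (0.52) and by Acvrl1 and Id3 (0.61). Eng had no gene of the 10 closer than Smad6 at 0.99, and Bmp2 none closer than Tgfbr2 at 1.02. Over the 16543 other named genes, Caskin2 (0.23) was among the 2 closest to Eng, and those closest to Acvrl1 were Tlcd3b (0.26) and Cnn1 (0.29). The closest to Bmpr2 were Larp6 (0.12) and Ccdc24 (0.14), and to Tgfbr2 Acot1 (0.15) and Rnf212 (0.16). Bmp2 was nearest to Sec14l3 (0.25) and Ugt8a (0.30), Bmp4 to Kirrel (0.22) and Sema6a (0.25), and Smad6 to Snai1 (0.27) and Pcdhga9 (0.28). Smad7 was nearest to Chd3 (0.27) and Sesn3 (0.27), Id1 to Slc1a1 (0.35) and Parm1 (0.36), and Id3 to Farp1 (0.23) and Neo1 (0.23). These distances describe the same 16 arrays and carry no test.

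The order of the group means was settled for some genes and not for others. Of the 7 neighbouring pairs of groups, ordered by mean, the arrays were separated in 6 for Eng, 5 each for Tgfbr2 and Bmp4, 4 each for Bmpr2, Smad6 and Id3, and 3 each for Acvrl1 and Smad7. For Id1 1 pair was separated, that of Y- C, which ranked first, and E- Tg. Y- C ranked first for Eng, Acvrl1, Tgfbr2, Id1 and Id3, although for Id3 it overlapped E- C. E- C ranked first for Bmpr2, and for Bmp4, where it did not overlap Y- C, and for Smad6 and Smad7, where it did. The lowest mean was that of Y+ Tg for Acvrl1, Bmpr2, Bmp4 and Id3, of Y- Tg for Tgfbr2 and Smad7, and of CD45+ control cells for Eng, Smad6 and Id1.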

How the data were processed

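RNA of the 16 sorted samples was measured on single-colour Agilent arrays, as described in the labels' protocols. The authors' deposited scanner files hold 62976 spots each with a processed signal intensity, made with Feature Extraction 10.7.3.1 per the file headers. The authors' deposited value table holds log2 values that, set against the scanner files, had been centred: each probe has a median of 0 over the 4 arrays that share tissue and sort gate (correlation of array differences 1). Its column medians ran from -0.183 to 0.175, and the reason for these array constants stays unknown, so it served as an alternative for the transgene comparison only.

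For each array log2 of the processed signal minus the 75th percentile was taken, without control or outlier spots. Spots of a probe were averaged. A probe was kept where both arrays of some group had it well above background (34183 of 55681), and each of 24607 genes was represented by its brightest probe. With 87 probes, Eng among them, an outlier spot left 1 array or more out of the fit. Probe names were updated through RefSeq by accession (26582), symbol (2602) or synonym (492). A group-means model over all 16 arrays (8 residual degrees of freedom) was fitted with limma 3.58.1 in R 4.3.3, with p-values adjusted by Benjamini-Hochberg within each of 16 comparisons, and was tested on simulated data. Marker sums are log2 of the summed linear signal of a list. A gene not well above background in 1 group is given as at least a fold, against the higher of its own signal and the lowest signal well above background on each array.

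Outside the 10 genes, the genes named are up to 3 per direction, role and transgene comparison with the largest called fold, the 2 nearest genes of each of the 10, and the genes of the gates and transgene; some results under this rule are not reported here. The 10 genes and all lists were chosen with earlier results of these data known. Probe positions are those of the files (mm9), and exon or UTR positions were not determined, since no annotation of that build was used here. Alternatives covered background correction, scaling, filters, probe choice, the samples in the fit, the prior, a replicate block, leaving out each array and, added after seeing the data, keeping outlier spots.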

Additional observations from a re-analysis of the deposited data

Results flagged for a closer look

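For 14 results a test of the difference between genotype effects, an interaction term in limma adjusted over all genes, passed the threshold. Each value is the difference between Tie-2-Etv2 and control in 1 population minus that in another.

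In CD45- cells, yolk sac minus embryo, the effect differed for Acvrl1 (-2.47 ± 0.44, SE), Tgfbr2 (-1.53 ± 0.31), Id3 (-2.89 ± 0.48), Bmp4 (-2.18 ± 0.53), Smad6 (-1.73 ± 0.51) and, in the other direction, the ligand Bmp2 (2.16 ± 0.64). In CD45+ cells, yolk sac minus embryo, it differed for Eng (1.43 ± 0.27), Acvrl1 (-2.15 ± 0.44) and Id3 (-2.71 ± 0.48). In the yolk sac, CD45+ minus CD45-, it differed for Eng (3.43 ± 0.31), Smad6 (2.99 ± 0.51), Smad7 (3.33 ± 0.66), Tgfbr2 (1.13 ± 0.31) and Bmp4 (1.96 ± 0.53). Tissue and slide cannot be told apart in the first 9 of these, and the gates of the others differ in slide column. Control and Tie-2-Etv2 arrays lay in different slide rows throughout.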

How the results depend on the processing

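Of 2695 differences of single genes recomputed under 29 alternatives, 2503 kept their side of the threshold, 130 lost a call, 62 gained one and 0 changed direction as called values. Counts of called genes in yolk sac transgene comparisons stayed between 7 and 10 (CD45-, where 1 gene could not be fitted without Y- Tg1) and between 3 and 5 (CD45+). In embryo CD45+ cells the count went from 0 to 1 with normexp, detected-probe scaling, the strict filter or the trended robust prior (Eng). For tissue in control CD45- cells it went from 2 to 1 with detected-probe scaling, no filter or the compared groups alone. The tissue difference of the CD45+ genotype effects went from 3 to 1 with no filter and to 0 with the compared groups alone, and tissue in Tie-2-Etv2 CD45- cells from 9 to 5 with the compared groups alone. The trended robust prior moved the gates of Tie-2-Etv2 yolk sac from 3 to 5 and the gate difference of the embryo genotype effects from 0 to 1. Leaving out 1 array gave counts of 0 to 1 for the transgene in embryo CD45- cells, 0 to 1 in embryo CD45+ cells, 0 to 2 for tissue in control CD45- cells, 5 to 8 in Tie-2-Etv2 CD45- cells and 1 to 3 in Tie-2-Etv2 CD45+ cells. For differences between genotype effects it gave 3 to 6 (tissue, CD45-), 0 to 3 (tissue, CD45+), 0 to 1 (gate, embryo) and 2 to 5 (gate, yolk sac). Arrays of the same replicate number deviated from their group means with correlations of 0.267, 0.0246, 0.0826 and -0.00693 between genotypes and of 0.386, 0.222, 0.0322 and 0.372 between gates. Since not all were over 0.1 in either set, and no label says what a number marks, the numbers were not taken as pairing. With the replicate block the count went from 0 to 1 for the transgene in embryo CD45+ cells (Bmp2), from 2 to 1 for tissue in control CD45- cells, from 0 to 1 for tissue in control CD45+ cells, from 3 to 5 for the gates of Tie-2-Etv2 yolk sac, from 3 to 0 for the tissue difference in CD45+ cells and from 5 to 3 for the gate difference in the yolk sac. The cause of these moves was not tested. In embryo CD45+ cells normexp changed the split of all calls from 565 higher and 182 lower to 659 and 470. Slide as a random block was not run, because each tissue lay on 1 slide. The number of arrays, 2 a group, limits all of these values.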
